A study of Mus musculus with 6 samples.

Results

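The miR-15/16 family was described here by 7 entries of 698 mature miRNAs listed for mouse left ventricle, namely mmu-miR-15a, mmu-miR-15b, mmu-miR-16, mmu-miR-195, mmu-miR-497, mmu-miR-322 and mmu-miR-322* (written below without the species prefix), chosen by name and not by level. The tested ventricles came from 3 mice labelled aMHC719/+, which carry 1 allele with the R719W mutation in Myh6, the gene of the α-myosin heavy chain of the mouse ventricle, and the others from 3 wild-type (WT) mice. Hypertrophic cardiomyopathy, in which the heart wall thickens, is often inherited through such myosin mutations. Cyclosporin, a drug that blocks calcineurin signalling, had been given to all 6 mice for 3 weeks. The genotypes are therefore compared under the drug, and untreated mice were not analysed here. Strain, age and sex are not given in the labels. Each library is labelled as a biological replicate, and the genotypes were deposited in separate tables.

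miRNAs are short RNAs that guide Argonaute proteins to partly complementary messenger RNAs, mostly through the seed, bases 2 to 8 from the 5′ end. The miR-15/16 family is known for restraining the cell cycle and cell survival, with cyclins, cyclin-dependent kinases and the survival factor BCL2 among its described targets. In mouse heart, miR-195 is known to rise around birth, when cardiomyocytes leave the cell cycle, and its forced expression in mouse heart causes hypertrophy. The family is made from several separate loci, so its members need not move together.

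The mature sequences are shown because the seed is what joins the family and the remaining bases are what tell its members apart in a read table. All 7 entries matched a RefSeq mature sequence (GRCm38.p6). Capitals mark the seed.
miR-16: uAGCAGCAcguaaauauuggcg
miR-195: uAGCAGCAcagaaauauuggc
miR-15a: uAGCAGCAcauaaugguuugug
miR-15b: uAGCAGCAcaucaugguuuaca
miR-497: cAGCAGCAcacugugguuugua
miR-322: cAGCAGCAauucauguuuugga
miR-322*: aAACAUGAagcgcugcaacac
Of the 7 entries, 6 share 1 seed. miR-322*, from the other arm of the miR-322 hairpin, has another seed (AACAUGA), so roles known for the family are not attributed to it. Counting positions from 1 at the 5′ end, miR-16 and miR-195 differed at only 2 of the 21 positions compared, written G10A and U11G with the base of miR-16 first. miR-16 and miR-497 differed at 11 of 22 positions, and miR-195 and miR-497, which lie side by side in the genome, at 9 of 21. The sources used here do not say how many mismatches a read could have, so how reads near to both miR-16 and miR-195 were divided is not known, and their separate levels are uncertain to that extent.

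The 6 seed-sharing entries come from 4 loci. The miR-15a and miR-16-1 hairpins lie 54 bases apart on chromosome 14, at 61632027 to 61632110 and 61631880 to 61631972 (GRCm38, minus strand), both inside the noncoding gene Dleu2. In GENCODE M21 the first lies in an intron and the second overlaps an exon. The miR-15b and miR-16-2 hairpins lie 66 bases apart on chromosome 3, at 69009772 to 69009835 and 69009902 to 69009996 (plus strand), in an intron of Smc4, which encodes a subunit of the condensin complex that compacts chromosomes for division. Mature miR-16 is identical from both loci, so its reads cannot be assigned to either. The miR-497 and miR-195 hairpins lie 241 bases apart on chromosome 11, at 70234717 to 70234800 and 70235042 to 70235135 (plus strand). They lie inside no annotated gene of a type other than miRNA, and overlap with other miRNA genes was not looked at. The miR-322 hairpin lies on chromosome X at 53054255 to 53054349 (minus strand), 200 bases from that of miR-503. Its sequence is shown because it yields 2 of the 7 entries, marked by capitals, miR-322 at bases 23 to 44 and miR-322* at bases 61 to 81.
Mir322 hairpin: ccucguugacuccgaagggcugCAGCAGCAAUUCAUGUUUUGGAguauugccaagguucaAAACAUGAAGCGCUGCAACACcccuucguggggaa

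Reads on miRNAs numbered 865845 to 1168379 in R719W libraries and 765425 to 1192020 in WT libraries. Levels are CPM, read counts set to a common library total, scaled between libraries by TMM, a method that assumes most miRNAs keep their level. A count of 0 allowed a level of up to 2.40 to 4.06 CPM (3 reads, counting error only, since the reads carry no molecular identifiers). Markers of cardiomyocytes (miR-1, miR-133a, miR-208a and miR-499) summed to 397337 to 546897 CPM in R719W and 523409 to 786281 CPM in WT. Most of each sum was miR-1, and miR-133a was far lower, at 225 ± 48.4 CPM in R719W and 250 ± 41.1 CPM in WT (SD, n = 3 each). Markers of neurons reached at most 13.6 CPM in R719W and 17.6 CPM in WT, with miR-124 at 0 reads in every library. Of the 4 tested cardiomyocyte entries 1 fell, miR-499, at 6574 ± 1242 CPM in R719W and 14447 ± 1349 CPM in WT (SD, n = 3 each; log2 fold change −1.14; edgeR adjusted p = 0.00808); without WT replicate 1 or WT replicate 3 none passed. Leukocyte entries did not move together. Of 5 tested 2 fell, miR-150 and miR-342-3p (log2 fold changes −0.80 and −1.24, both edgeR adjusted p = 0.0254), with 0 to 3 passing when 1 library was left out. miR-142-3p and miR-223 were higher in R719W without overlap but did not pass (0.64 and 0.56, edgeR adjusted p = 0.0625 and 0.102). miR-155 did not pass either (−0.52, edgeR adjusted p = 0.160). The leukocyte list summed to 1076 to 1407 CPM in R719W and 870.1 to 1007 CPM in WT. The part of these cell types in the family's levels was not tested. Of the 698 entries, 181 had enough reads to be tested, and all 7 family entries were among them. In bulk tissue, fewer cells of a type and less RNA per cell cannot be told apart.

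miR-497 rose in the R719W ventricle, and it was the only family entry to pass the test. Its genomic neighbour miR-195 had a nearly equal fold change, with an adjusted p just above 0.05. The abundant members miR-16 and miR-322 had small fold changes within their errors. By edgeR's quasi-likelihood test on read counts adjusted by Benjamini-Hochberg over the 181 tested miRNAs, 1 of 7 entries rose, 0 fell and 6 did not pass. Among all miRNAs tested, 19.9% passed, 12.7% as rises and 7.18% as falls, so the family's count of 1 was near that background. By unadjusted edgeR p below 0.05 there were 3 entries (miR-497, miR-195 and miR-15b), against 37.6% of all tested miRNAs. In DESeq2, by which 15.5% of all tested miRNAs passed, 0 of 7 passed after adjustment and 2 before it (miR-497 and miR-195). The libraries of the genotypes did not overlap for 3 of 7 entries, all higher in R719W, against 40.9% of all tested miRNAs in either direction and 24.9% in that direction. The median log2 fold change was 0.19 over the 7 entries and 0.10 over all miRNAs tested.

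**Figure D1:**
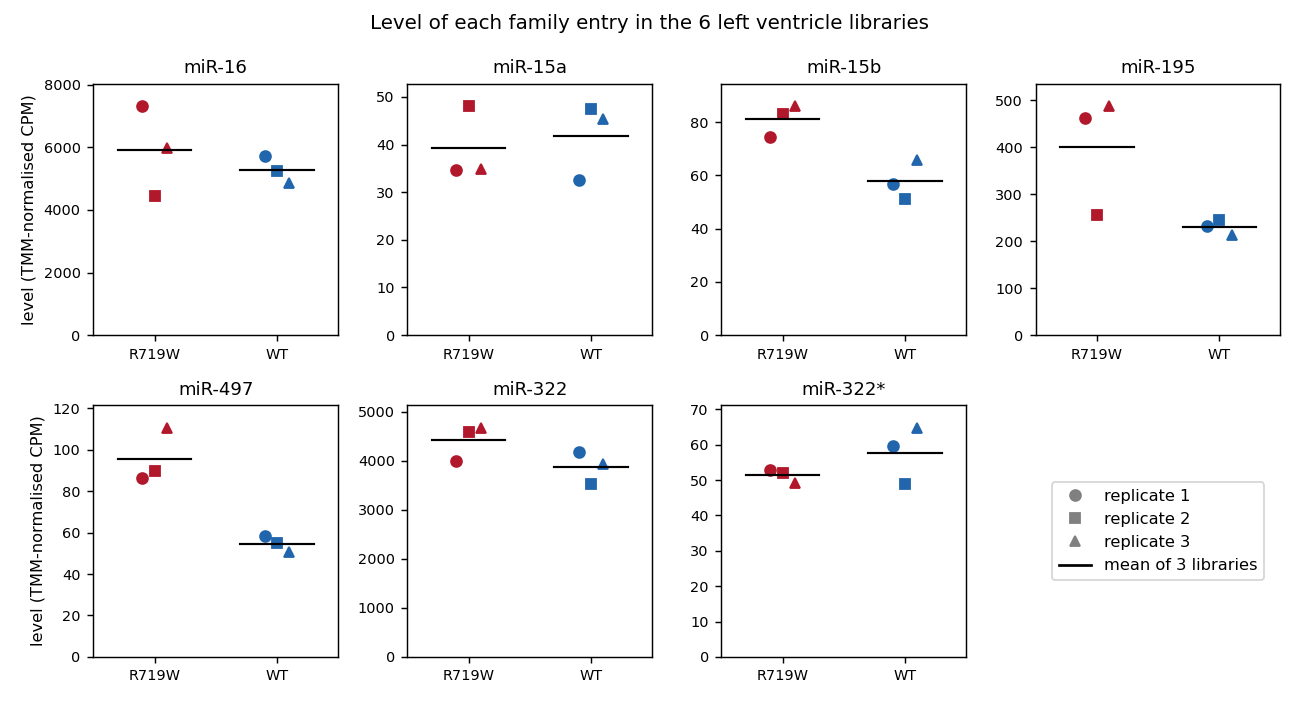
Level of each of the 7 family entries in TMM-normalised CPM (vertical axes from 0, each with its own scale), with 1 point per library, R719W left and WT right, and a line at the mean of 3 libraries. The 3 R719W libraries lay above the 3 WT libraries for miR-497, miR-195 and miR-15b, and the genotypes overlapped for the other entries; R719W replicate 2 stood far below the other R719W libraries for miR-195.

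miR-497, a cell cycle inhibitor made with miR-195, stood at 86.6, 89.6 and 110.4 CPM in R719W replicates 1, 2 and 3 and at 58.2, 54.9 and 50.5 CPM in WT replicates 1, 2 and 3. The lowest R719W library exceeded the highest WT library by more than the spread within WT, so the genotypes did not overlap. Levels averaged 95.5 ± 13.0 CPM in R719W and 54.5 ± 3.84 CPM in WT (SD, n = 3 each), a 1.75-fold difference with an edgeR adjusted p of 0.0258 (log2 fold change 0.81, SE 0.21). These levels rested on 85, 112 and 117 reads in R719W and 43, 45 and 50 reads in WT. The call rested on single libraries: left-out fits gave adjusted p from 0.00693 to 0.146 and kept the call in 2 of 6, those without R719W replicate 1 or 2. Without R719W replicate 3 the log2 fold change was 0.65 (edgeR adjusted p = 0.146), and without WT replicate 1, 2 or 3 it was 0.77, 0.80 and 0.75 (edgeR adjusted p = 0.143, 0.0771 and 0.135). These fits also differed over the whole table: the share of all tested miRNAs that passed was 30.6%, 21.7% and 3.7% without R719W replicates 1, 2 and 3, and 2.07%, 10.6% and 2.15% without WT replicates 1, 2 and 3.

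miR-195, the member best known in the heart, stood at 461, 256 and 487 CPM in R719W replicates 1, 2 and 3 and at 231, 245 and 214.2 CPM in WT replicates 1, 2 and 3. The genotypes did not overlap, but R719W replicate 2 lay only just above the highest WT library while the other R719W libraries lay far above it. Levels averaged 401 ± 127 CPM in R719W and 230.3 ± 15.5 CPM in WT (SD, n = 3 each), 1.74-fold apart with an edgeR adjusted p of 0.0543 (log2 fold change 0.80, SE 0.26). The entry passed in 5 of 14 alternative fits, among them those without R719W replicate 1 (log2 fold change 0.63, edgeR adjusted p = 0.0278) or R719W replicate 2 (0.93, edgeR adjusted p = 0.0135). Without R719W replicate 3 it was 0.58 (edgeR adjusted p = 0.193), and without each WT replicate the adjusted p was 0.190, 0.0976 and 0.188.

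Markers of fibroblasts were higher on average in R719W, as miR-497 and miR-195 were, though miR-199b* overlapped between the genotypes. The 5 entries of that list (miR-199a, miR-199b and miR-214 by any arm) summed to 1076, 1010.4 and 1380.3 CPM in R719W replicates 1, 2 and 3 and to 225, 195 and 192 CPM in WT replicates 1, 2 and 3, and 3 of its 4 tested entries rose. None of the 5 was at 0 in all libraries, and miR-214*, with 1, 1 and 3 reads in R719W, had no read in WT. The part of fibroblasts in the levels of miR-497 and miR-195 was not tested.

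Of the pairs made with miR-16, miR-15b is the one hosted by Smc4 on chromosome 3. It stood at 74.4, 83.2 and 85.9 CPM in R719W replicates 1, 2 and 3 and at 56.8, 51.2 and 65.7 CPM in WT replicates 1, 2 and 3. The genotypes did not overlap, and the means were 81.1 ± 6.02 CPM in R719W and 57.9 ± 7.29 CPM in WT (SD, n = 3 each), but the edgeR adjusted p was 0.117 (log2 fold change 0.48, SE 0.21). In the 13 alternative fits its log2 fold change lay between 0.35 and 0.72 and its adjusted p between 0.0935 and 0.372.

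miR-15a, hosted by Dleu2 on chromosome 14, was the lowest of the entries, at 34.6, 48.0 and 34.9 CPM in R719W replicates 1, 2 and 3 and 32.5, 47.6 and 45.5 CPM in WT replicates 1, 2 and 3. The genotypes overlapped (edgeR adjusted p = 0.764, log2 fold change −0.09, SE 0.25), and with library totals alone in place of TMM the log2 fold change was 0.11. The interval of the difference (95%) ran from −0.66 to 0.47 on the log2 scale, on 24 to 60 reads a library, so a change within those bounds remained possible.

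miR-16, the most abundant member, stood at 7309, 4443 and 5996 CPM in R719W replicates 1, 2 and 3 and at 5729.9, 5232 and 4849 CPM in WT replicates 1, 2 and 3. The R719W libraries spanned the whole WT range, with replicate 1 above it and replicate 2 below it. Means were 5916 ± 1434 CPM in R719W and 5270.2 ± 442 CPM in WT (SD, n = 3 each; log2 fold change 0.17, SE 0.21; 95% interval −0.31 to 0.64; edgeR adjusted p = 0.555). Without R719W replicate 1 the log2 fold change was −0.064.

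Red blood cells are rich in miR-16, and their markers were highest among the R719W libraries in the same library as miR-16, replicate 1. In WT miR-16 was highest in replicate 1 and the sum of the markers in replicate 2, though not every marker was. miR-144, miR-451 and miR-486 summed to 2570.0, 1361 and 1415 CPM in R719W replicates 1, 2 and 3, against 2977, 3301 and 1966 CPM in WT replicates 1, 2 and 3. Most of each sum was miR-486, at 1334 to 2527 CPM in R719W and 1927 to 3254 CPM in WT. The levels of miR-144 and miR-451 were 9.60 to 22.4 CPM in R719W and 19.2 to 35.2 CPM in WT. In WT replicates 1, 2 and 3 miR-144 stood at 33.8, 28.1 and 19.2 CPM and miR-451 at 35.2, 19.5 and 20.2 CPM. Both were thus highest in WT replicate 1, as miR-16 was, and miR-486 was highest in WT replicate 2. None of the 3 was at 0, and 0 of 3 passed in edgeR (1 at an unadjusted p below 0.05, miR-144). In DESeq2 0 passed as well, and 2 were below 0.05 unadjusted. Without R719W replicate 1, miR-144 and miR-486 passed as lower in R719W (edgeR). The part of red blood cells in the miR-16 level was not tested.

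miR-322, the mouse counterpart of human miR-424, is known in mouse muscle cells to promote exit from the cell cycle. It stood at 4001, 4585 and 4659.9 CPM in R719W replicates 1, 2 and 3 and at 4175, 3517 and 3923 CPM in WT replicates 1, 2 and 3. R719W replicate 1 lay inside the WT range and the other R719W libraries above it. Means were 4415 ± 361 CPM in R719W and 3872 ± 332 CPM in WT (SD, n = 3 each; log2 fold change 0.19, SE 0.17; 95% interval −0.19 to 0.57; edgeR adjusted p = 0.415).

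miR-322* stood at 53.0, 52.0 and 49.1 CPM in R719W replicates 1, 2 and 3 and at 59.5, 48.8 and 64.7 CPM in WT replicates 1, 2 and 3. The R719W libraries lay inside the WT range (log2 fold change −0.17, SE 0.21; edgeR adjusted p = 0.554; 0.054 with library totals alone).

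**Figure D2:**
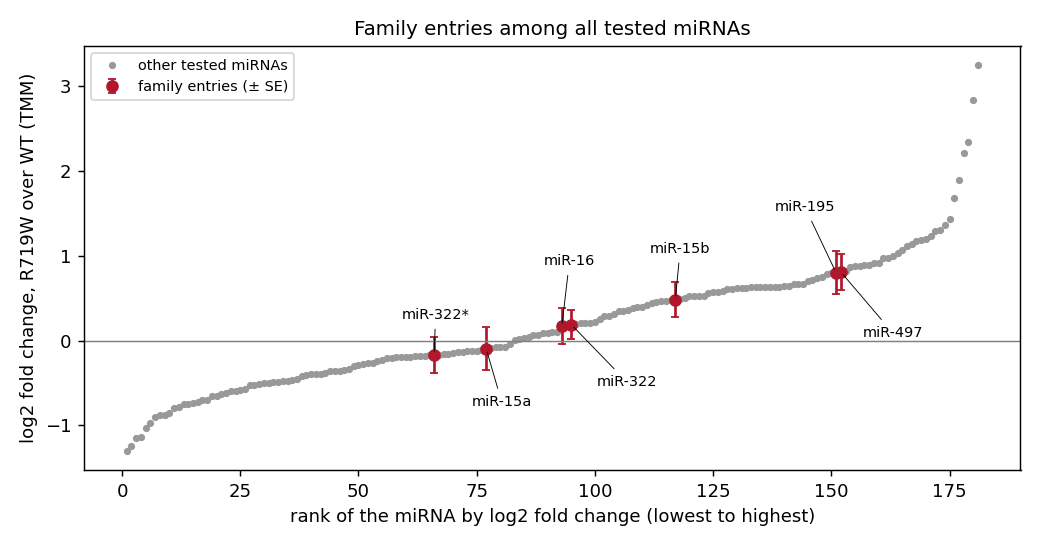
Log2 fold change, R719W over WT relative to TMM (vertical axis), of the 181 miRNAs tested, ranked from lowest to highest (horizontal axis), with the 7 family entries in red (bars: SE) and all others in grey. miR-497 and miR-195 ranked 30th and 31st from the highest, miR-15b 65th, and miR-322, miR-16, miR-15a and miR-322* lay between ranks 87 and 116.

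The order of levels differed little between the genotypes. In R719W it was miR-16, miR-322, miR-195, miR-497, miR-15b, miR-322* and miR-15a, and in WT miR-16, miR-322, miR-195, miR-15b, miR-322*, miR-497 and miR-15a. miR-16 and miR-322 overlapped between libraries in R719W and did not in WT. miR-15b, miR-322* and miR-497, at 57.9, 57.7 and 54.5 CPM in WT, did not differ there beyond their spread. Ligation and amplification favour some sequences over others, so this order is less certain than a comparison of 1 miRNA between libraries.

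As a share of all miRNA reads, the 7 entries together took 1.14%, 1.02% and 1.40% in R719W replicates 1, 2 and 3 and 0.934%, 0.985% and 0.765% in WT replicates 1, 2 and 3, and the genotypes did not overlap. Counting error (95%, Wilson) was at most 0.0247 percentage points either way. Relative to TMM they did overlap: the summed level was 12019.8, 9557 and 11423 CPM in R719W and 10343, 9197 and 9212 CPM in WT. Shares are lowered by abundant miRNAs such as miR-1, and with the 5 most abundant miRNAs left out of the total the family took 3.28% ± 0.258 of reads in R719W and 2.86% ± 0.133 in WT (SD, n = 3 each).

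Within the family, miR-16 and miR-322 together made up 93.9% ± 0.604 of the reads in R719W and 95.4% ± 0.341 in WT (SD, n = 3 each). How they divided that share varied most in R719W: miR-16 made up 60.8%, 46.5% and 52.5% of family reads in R719W replicates 1, 2 and 3 and 55.4%, 56.9% and 52.6% in WT replicates 1, 2 and 3. miR-322 made up 33.3%, 48.0% and 40.8% in the same R719W libraries and 40.4%, 38.2% and 42.6% in the WT libraries. The R719W libraries thus lay on both sides of the WT libraries for each of these members, with replicate 1 high in miR-16 and replicate 2 high in miR-322, by more than the counting error of at most 1.12 percentage points.

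**Figure D3:**
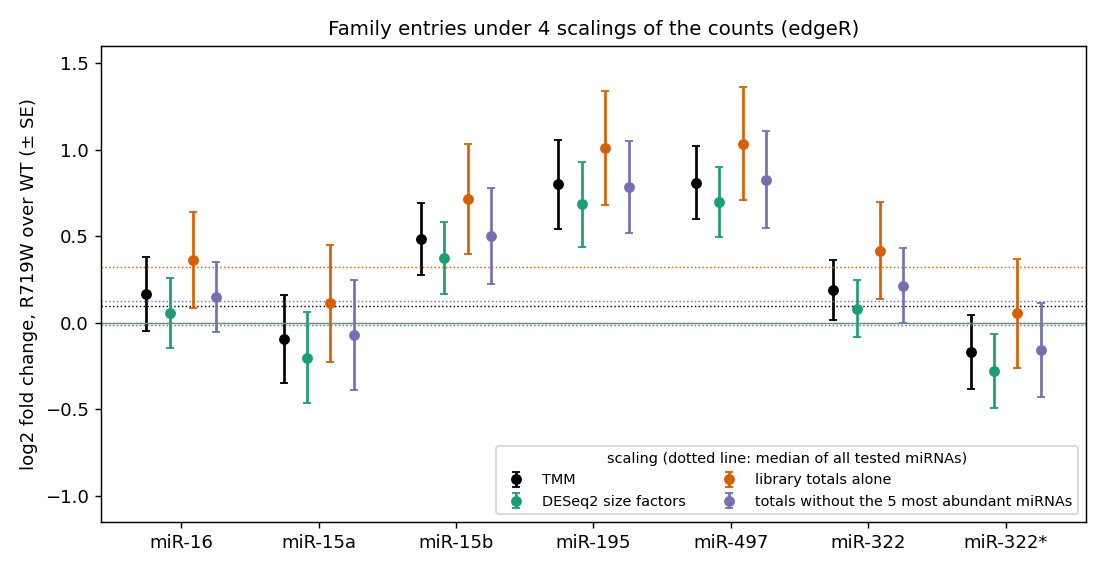
Log2 fold change, R719W over WT (vertical axis; points, with bars for the SE), of each family entry (horizontal axis) in edgeR under 4 scalings of the counts, with dotted lines at the median of all 181 miRNAs under each scaling. Entries and median shift together with the scaling, and miR-195 and miR-497 lie above the median under each.

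Relative to TMM, the log2 fold changes of single miRNAs moved by a median of −0.11 under DESeq2's size factors, of 0.21 under library totals alone and of 0.01 when those totals left out the 5 most abundant miRNAs. Less that shift, the log2 fold change of miR-497 was 0.81, 0.82 and 0.81 under these scalings, and that of miR-195 was 0.79, 0.80 and 0.77. The calls depended on the scaling all the same. With DESeq2's size factors miR-497 passed (edgeR adjusted p = 0.0437) and miR-195 did not (edgeR adjusted p = 0.0798). With library totals alone both passed (edgeR adjusted p = 0.0232 for miR-497 and 0.0243 for miR-195), and with the 5 most abundant miRNAs left out of the totals neither did (edgeR adjusted p = 0.0592 for both). Of all tested miRNAs, 14.9%, 20.4% and 11.0% passed under these scalings. The share was 12.4% with no filter on low counts, 21.8% with at least 100 reads in 3 libraries, 16.6% in limma and 16.6% with replicate number as a block.

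Ratios within a library do not depend on the scaling between libraries, and 6 were compared. The test was an exact two-sided permutation test, whose smallest possible p with 3 libraries a side is 0.1. miR-195 and miR-497, made from 1 locus, had a geometric mean ratio of 4.05 reads of miR-195 per read of miR-497 in R719W and 4.19 in WT. The difference of the log2 ratio was −0.05 (exact permutation p = 0.9), with an SD of 0.46 in R719W and 0.08 in WT, and R719W replicates 1, 2 and 3 stood at 2.41, 1.51 and 2.14 on the log2 scale. miR-195 was compared with miR-16, its closest relative in sequence. The log2 ratio was −3.98, −4.12 and −3.62 in R719W replicates 1, 2 and 3 and −4.63, −4.41 and −4.50 in WT replicates 1, 2 and 3. These did not overlap, a 1.52-fold difference of the ratio (exact permutation p = 0.1, 0.3 after Benjamini-Hochberg adjustment over the 6 ratios).

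The miR-15b to miR-16 ratio was 1.27-fold higher in R719W on average (exact permutation p = 0.2, adjusted 0.4), and the miR-15a to miR-16 ratio 0.849-fold (p = 0.7 by the exact permutation test, adjusted 0.9), both with overlap. Since miR-16 reads come from both loci, neither ratio describes 1 transcript. The miR-322 to miR-16 ratio was 1.03-fold (exact permutation p = 0.9), with R719W replicates 1, 2 and 3 at −0.87, 0.05 and −0.36 and WT replicates at −0.46, −0.57 and −0.31 on the log2 scale.

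For the arms of the miR-322 hairpin printed above, the log2 ratio of miR-322 to miR-322* was 6.23, 6.45 and 6.56 in R719W replicates 1, 2 and 3 and 6.12, 6.15 and 5.91 in WT replicates 1, 2 and 3. The genotypes did not overlap, and the ratio was 1.27-fold higher in R719W (exact permutation p = 0.1, adjusted 0.3). miR-322* made up 1.31%, 1.12% and 1.04% of the reads of both arms in R719W and 1.41%, 1.37% and 1.62% in WT. It had 40 to 65 reads a library, and the Wilson interval (95%) was 0.998% to 1.71% in R719W replicate 1, which holds the values of all 3 WT libraries. In R719W replicate 2 it was 0.881% to 1.43%, below the value of WT replicate 3. For R719W replicate 3 it was 0.795% to 1.36%, below the values of all 3 WT libraries. The intervals of WT replicates 1, 2 and 3 began at 1.05%, 1.01% and 1.27%, so they overlapped with each of these.

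**Figure D4:**
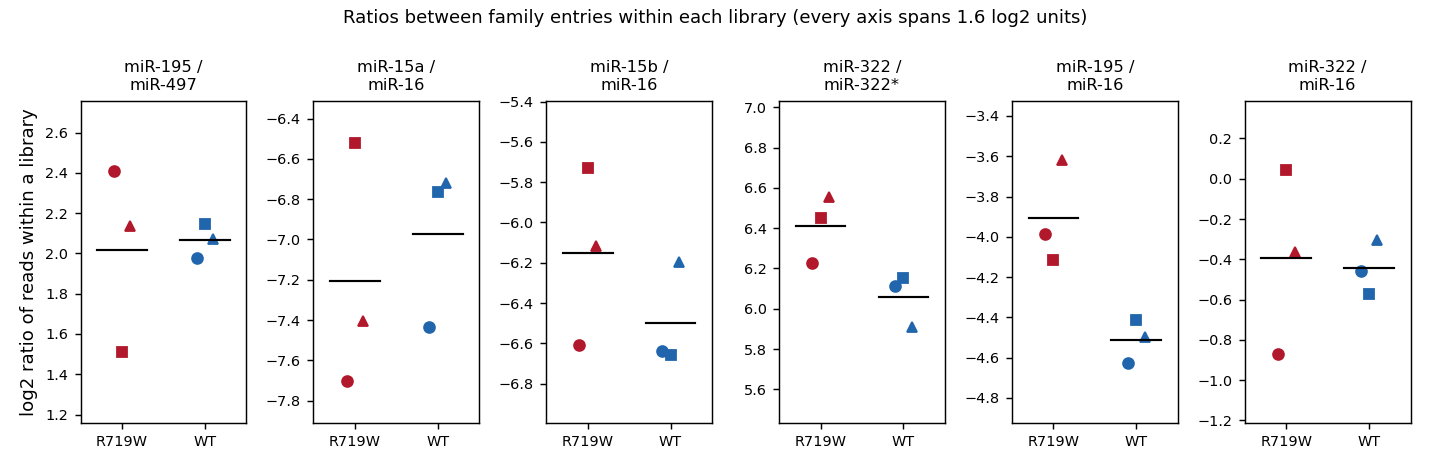
Log2 ratio of reads (vertical axes, each spanning 1.6 log2 units) for 6 pairs of family entries, 1 point per library with symbols for replicates 1 (circle), 2 (square) and 3 (triangle), R719W left and WT right, lines at the means. The genotypes lay apart for miR-322 over miR-322* and for miR-195 over miR-16, and the R719W libraries were more spread than the WT libraries for miR-195 over miR-497 and miR-322 over miR-16.

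Of the remaining arms of these hairpins, only 3 were listed among the 698 entries, and these were nearly absent. No other arm of the miR-195 or miR-497 hairpin was listed, so the levels of those arms are not known. miR-15b* and miR-16* had 0 reads in all 6 libraries, and miR-15a* had 1 read, in WT replicate 2. miR-1907 was the only other table entry with the family seed and had no read. Counting the letters AGCAGC at base 1 or base 2 of the mature strand, 10 of 698 entries (1.43%) held them: the 6 seed-sharing members, miR-1907, miR-103, miR-107 and miR-503. The last 3 are shown because their seeds differ from that of the family by an offset or a single base. Capitals again mark bases 2 to 8.
miR-103: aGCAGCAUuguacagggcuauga
miR-107: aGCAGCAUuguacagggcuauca
miR-503: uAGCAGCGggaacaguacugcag
None of these 3 passed in edgeR, at an adjusted or an unadjusted p below 0.05, or in DESeq2. miR-103, made from introns of pantothenate kinase genes, stood at 530.2 ± 13.7 CPM in R719W and 514 ± 29.6 CPM in WT (SD, n = 3 each; edgeR adjusted p = 0.826; log2 fold change 0.05, SE 0.17). miR-107, which differs from it by 1 base near the 3′ end, stood at 44.8, 60.0 and 51.9 CPM in R719W and 82.6, 62.2 and 76.8 CPM in WT. The genotypes did not overlap for miR-107, and it was the lower in R719W (edgeR adjusted p = 0.130; log2 fold change −0.49, SE 0.22).

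miR-322 is made in 1 cluster on chromosome X with miR-503, miR-351, miR-542 and miR-450 entries, 9 in the table. Of these 3 were tested and 0 passed, in edgeR (0 also at an unadjusted p below 0.05) as in DESeq2. miR-542-5p stood at 76.1 ± 5.46 CPM in R719W and 74.6 ± 7.72 CPM in WT (SD, n = 3 each; edgeR adjusted p = 0.895; log2 fold change 0.03, SE 0.20). miR-503 had a log2 fold change of 0.06 (SE 0.38) and miR-450a-5p of −0.17 (SE 0.34). miR-351, which carries another seed, had too few reads to be tested, with 15, 12 and 14 reads in R719W and 6, 4 and 8 in WT, or 15.3, 9.60 and 13.2 CPM in R719W and 8.12, 4.88 and 8.08 CPM in WT. Its libraries did not overlap between the genotypes, unlike those of miR-322, miR-503 and miR-542-5p.

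Some other miRNAs lay close to the family's profile over the 6 libraries, which is mostly that of miR-16 and miR-322. By root mean square distance between centred log2 levels, among 93 tested miRNAs outside the family with at least 100 CPM, the summed family was nearest to miR-99a (0.07), miR-100 (0.09) and miR-140* (0.12), against a median distance of 0.36. miR-497 was nearest to miR-99b (0.12), miR-652 (0.16) and miR-23b (0.17), against a median of 0.54. Within the family, miR-497 lay closer to miR-15b (0.22) than to its genomic neighbour miR-195 (0.27), while miR-195 lay closest to miR-497. A small distance can also arise where both profiles vary little between libraries. These distances describe 6 libraries and carry no test.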

How the data were processed

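Small-RNA libraries of 6 left ventricles were compared, 3 R719W and 3 WT. Per the labels' protocols, total RNA including its small fraction was extracted and miRNA libraries were made and multiplexed. The sources used here name no aligner, mismatch limit, annotation or genome build. Per the file headers, the authors deposited whole-number read counts and a normalized value for each library. The authors' normalized values equal CPM, each count set against its library's total over the listed miRNAs (largest relative gap 4.6e-15). Columns were assigned by the barcode in header and sample description.

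The whole table of counts was fitted with edgeR 4.0.16 (R 4.3.3): filterByExpr (minimum count 10, total 15; 181 tested, 517 not), TMM (factors 0.830 to 1.22), glmQLFit and glmQLFTest, two-sided, Benjamini-Hochberg, calls at an adjusted p below 0.05. SE is the absolute log2 fold change over the square root of F. Ratios used reads plus 0.5 and exact permutation tests (scipy 1.17.1). Alternatives were DESeq2 1.42.0, other scalings and filters, limma 3.58.1 on log2(CPM + 1), a replicate block and leaving out each library. Members, lists and the rule for named miRNAs (all members, other arms, seed relatives, neighbours of miR-322, nearest profiles) were chosen with earlier results of these data known. In edgeR 0 of 2 tested endothelium and 0 of 2 tested smooth muscle entries passed (0 unadjusted in each; in DESeq2 0, and 1 unadjusted in each), and no epithelium or liver entry had enough reads. Leukocyte, endothelium, smooth muscle, epithelium and liver markers summed in R719W to 1076 to 1407, 15193 to 16805, 17214 to 25585, 1.89 to 4.00 and 0.800 to 1.02 CPM, and in WT to 870.1 to 1007, 17980.3 to 22206, 20925 to 36206, 2.02 to 6.77 and 0 CPM. The edgeR step was tested on simulated data. No 2 libraries agreed within sampling noise (chi-square over degrees of freedom 32.8 to 283 for libraries of 1 genotype). Hairpins were placed with GENCODE M21 (GRCm38), and sequences are from RefSeq (GRCm38.p6).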

Additional observations from a re-analysis of the deposited data

How the results depend on the processing

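Of the 7 family entries, 1 passed in edgeR. DESeq2 (2 at an unadjusted p below 0.05), totals without the 5 most abundant miRNAs (2) and the replicate block (2) gave 0, as did the filter of at least 100 reads in 3 libraries, which left 3 entries to test and miR-497 out. Library totals alone and limma on log2(CPM + 1) gave 2. Leaving out each library in turn gave 0 to 2. No filter on low counts gave 1, miR-195 in place of miR-497. Over all miRNAs, 36 passed, against 20 with totals without the 5 most abundant miRNAs, 22 with at least 100 reads in 3 libraries and 4 to 56 with 1 library left out. The replicate block gave 30 calls in all. Same-numbered libraries did not deviate together (correlations −0.18, −0.38 and −0.00077), which gave no sign that the numbers pair the mice. With 3 libraries a genotype, that check cannot exclude pairing.

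Directions turned for entries near 0. With library totals alone and with limma, miR-15a stood at 0.11 and 0.12 and miR-322* at 0.054 and 0.051. miR-16 stood between −0.064 (without R719W replicate 1) and 0.23 over the left-out libraries. miR-195, miR-497, miR-15b and miR-322 kept a positive log2 fold change in each alternative run. The log2 difference of miR-195 over miR-497 was 0.0061 with 5 reads added and −0.24 to 0.21 over the left-out libraries, that of miR-15a over miR-16 −0.58 to 0.0096, and that of miR-322 over miR-16 −0.17 to 0.29. miR-195 over miR-16 stayed between 0.46 and 0.71, miR-15b over miR-16 between 0.13 and 0.57, and miR-322 over miR-322* between 0.28 and 0.44. The fold of the family's share of reads, R719W over WT, was 1.33, lay between 1.21 and 1.42 with 1 library left out, and was 1.15 without the 5 most abundant miRNAs in the total and 1.15 for the TMM-normalised sum. The cause of these changes was not tested. The lower 4 entries (miR-15a, miR-15b, miR-497 and miR-322*) rested on 24 to 117 reads a library, and the part of depth in their errors was not tested.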
